A study of Mus musculus with 24 samples.

Results

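Gene expression was compared between Vhl flox/flox and Vhl flox/WT mice in the immature B cell sort of the bone marrow. The members are all libraries labelled immature, 8 of the 24 libraries of the study, with 4 mice of each genotype, and every gene that could be tested was included (12850 genes). Every mouse carried MB1 Cre +/WT, a recombinase driven by the promoter of Mb1 (Cd79a), which is active from the earliest B lineage cells on. The controls, MB1 Cre +/WT with VHL flox/WT, therefore carried the recombinase too and kept 1 unfloxed Vhl allele, and the other group was MB1 Cre +/WT with VHL flox/flox. The same 8 mice also gave a sort of pro-B with pre-B cells (labelled proBpreB) and a mature sort. The labels name the populations but neither the surface markers of the gates nor the age of the mice, and they list no treatment.

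Vhl encodes the substrate receptor of a ubiquitin ligase. With oxygen present, prolyl hydroxylases modify the alpha subunits of hypoxia-inducible factor (HIF), Vhl binds the hydroxylated subunit, and the subunit is degraded. Without Vhl the alpha subunits persist and, with their partner Arnt, drive genes of glycolysis, oxygen sensing, mitochondrial turnover and blood vessel growth. At the immature stage B cells begin to display the B cell receptor on the surface, cells that bind self antigen edit their receptor or die, and the others leave the marrow.

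The immature libraries held 7850186 to 11863949 counts over the deposited genes, and 3 counts amounted to 0.252 to 0.419 CPM, a count relative to library size. Levels below are CPM after TMM scaling, listed from replicate 1 to replicate 4 of each genotype, or as mean ± SD with n = 4 mice per genotype. Levels of different genes are not compared, since CPM takes no account of gene length. Log2 changes are flox/flox relative to flox/WT, with SE and adjusted p from edgeR's quasi-likelihood test over all 12850 genes. A call means an adjusted p under 0.05. In all, 1310 genes were higher and 1346 lower in flox/flox mice (10.2% and 10.5% of those tested, 20.7% together), and the median log2 change of all genes was 0.0034. B cell markers were abundant in both genotypes, with summed levels of 13490 to 15230 CPM in flox/flox and 12400 to 14760 CPM in flox/WT libraries for the 9 genes of that list. In the control libraries of proBpreB, immature and mature cells Vpreb3, a gene of the stages up to the immature cell, averaged 911 ± 29.8, 467 ± 91.9 and 147 ± 40.7 CPM, and Fcer2a, which encodes CD23 of mature cells, 12.8 ± 4.89, 393 ± 27.0 and 1739.9 ± 116 CPM, so the immature sort stood between the others for both. Ddx3y, a gene of the Y chromosome, was above 1 CPM in replicate 1 of both genotypes and in no other immature library, so the sexes were spread evenly over the genotypes.

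Transcripts of other blood cells were present and differed between the genotypes. Marker counts in this paragraph stand against 10.2% of all genes higher and 10.5% lower. Of 15 erythroid markers tested, 7 were higher in flox/flox mice and 0 lower, and their summed level was 10280 to 19050 CPM in flox/flox and 2494 to 8030 CPM in flox/WT libraries. Hbb-bs, a beta globin whose reads cannot be cleanly separated from those of the near-identical Hbb-bt, averaged 2428 ± 685 and 874 ± 347 CPM, and Alas2, the erythroid heme synthesis enzyme, 45.7 ± 10.4 and 15.4 ± 6.74 CPM. In the fit of the immature libraries alone, 13 of the 15 were higher. Of 18 neutrophil and monocyte markers 6 were higher and 0 lower, with sums of 12910 to 17480 and 8833 to 10430 CPM, and S100a8, a neutrophil calcium-binding protein, averaged 2847 ± 432 and 1532 ± 190.0 CPM. T cell markers summed to 41.57 to 46.32 CPM in flox/flox and 32.71 to 47.02 CPM in flox/WT libraries, and 0 of 8 were called. Natural killer cell markers summed to 33.97 to 44.04 and 18.54 to 27.34 CPM, with 2 of 10 higher and 0 lower. Plasma cell markers summed to 110.2 to 166.4 and 192.9 to 310.1 CPM, with 1 of 6 higher and 3 lower. Plasmacytoid dendritic cell markers summed to 3187 to 3891 and 2802 to 3747 CPM, with 1 of 10 higher and 2 lower. Markers of stroma and endothelium summed to 138.9 to 166.2 and 135.4 to 208.4 CPM, and 0 of 7 were called. Too low to test were Epb42 of the erythroid, Trat1 of the T cell, Tnfrsf17 of the plasma cell and Kitl, Col1a1 and Col3a1 of the stromal list. In sorted bulk RNA, fewer cells of a type and less RNA per cell cannot be told apart, and the part of these transcripts in the results below was not tested.

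Vhl itself was counted at 6.80, 3.07, 4.29 and 8.16 CPM in flox/flox and at 47.9, 34.2, 26.7 and 33.1 CPM in flox/WT mice. The genotypes did not overlap, and the mean difference of log2 CPM was -2.69 (two-sided exact permutation p = 0.0286, the smallest that 4 against 4 libraries allow over 70 assignments). Vhl lies on chromosome 6 at 113623994 to 113631634 (GRCm38). The labels do not place the lox sites, so the remaining counts may come from outside the deleted part. The source of these counts was not tested. The fall was larger than in the proBpreB sort, where the log2 change was -1.32 against -2.66 in immature cells (test of the difference, adjusted p = 0.00838), and was not called different from the -1.94 of mature cells (adjusted p = 0.225).

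Transcripts of most tested genes of glycolysis, from glucose uptake to lactate export, were higher in flox/flox immature cells. The 9 hypoxia lists together name 91 genes, of which 81 were tested, and 61 of the 81 were higher in flox/flox immature cells and 0 lower, against 10.2% and 10.5% of all genes. Their median log2 change was 2.13. In 59 of the 81 every flox/flox library lay above every flox/WT library, which 11.4% of all genes did. The 10 members not tested had counts under the filter or no row in the table, and a gene that passed the filter through its flox/flox libraries alone had to differ, so the count is a description.

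At the entry, 5 of 5 tested genes of glucose uptake and phosphorylation rose (median log2 change 2.28). Slc2a1, the glucose transporter GLUT1, measured 296, 387, 342 and 352 CPM in flox/flox and 76.7, 59.7, 55.7 and 52.7 CPM in flox/WT mice (log2 change 2.49, SE 0.13, adjusted p = 4.74e-15). Hk2, the inducible hexokinase that traps glucose in the cell, measured 81.8, 81.3, 84.8 and 74.3 CPM and 10.2, 14.0, 9.76 and 12.1 CPM (log2 change 2.81, SE 0.20, adjusted p = 4.6e-12). The genotypes did not overlap for either gene, and Hk1, the constitutive hexokinase, rose by 0.95 on the log2 scale. At the phosphofructokinase step 4 of 5 rose (median 2.63). Pfkl and Pfkp, the liver and platelet forms of the enzyme, rose by 3.25 and 2.87. Pfkfb3, which makes the allosteric activator of phosphofructokinase, went from 27.8 ± 2.66 to 173 ± 4.24 CPM. Its relative Pfkfb4 was the member without a call, at 10.7, 14.4, 17.0 and 17.2 CPM in flox/flox and 21.7, 16.3, 23.7 and 19.7 CPM in flox/WT mice, and the genotypes overlapped (log2 change -0.46, adjusted p = 0.084).

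All 8 tested enzymes of lower glycolysis rose (median 2.99, range 2.17 to 6.81). Aldoc, the brain form of aldolase on chromosome 11 at 78323073 to 78327781, measured 371, 347, 339 and 357 CPM in flox/flox and 2.02, 2.54, 3.79 and 3.89 CPM in flox/WT mice. The flox/WT libraries were low and the flox/flox libraries were grouped tightly far above them, with a log2 change of 6.81 (SE 0.17, adjusted p = 1.73e-22). Tpi1, triose phosphate isomerase on chromosome 6 at 124810586 to 124814158, measured 4432, 3523, 4003 and 3646 CPM and 179, 206, 199 and 217 CPM (log2 change 4.28, SE 0.14, adjusted p = 1.23e-19). Pgk1, an ATP-producing kinase of the pathway, rose by 3.56, pyruvate kinase Pkm by 3.08 and Gapdh by 2.17. Gapdh has many processed copies in the mouse genome, so its counts depend on how multiply mapped reads were treated. At the end of the pathway 5 of 9 tested genes rose (median 0.65). Slc16a3, the lactate exporter MCT4, on chromosome 11 at 120948484 to 120959000, measured 692, 757, 597 and 696 CPM in flox/flox and 10.5, 11.9, 16.0 and 12.0 CPM in flox/WT mice (log2 change 5.75, SE 0.17, adjusted p = 5.04e-21). Ldha, which reduces pyruvate to lactate, went from 622 ± 78.9 to 5242 ± 354 CPM. Pdk1, the kinase that shuts off pyruvate dehydrogenase, measured 218, 415, 362 and 359 CPM and 44.1, 45.3, 43.3 and 51.1 CPM, so that the lowest flox/flox library still exceeded the highest flox/WT library (log2 change 2.88, adjusted p = 6.89e-14). Pdk2 and Pdk3 rose by 1.04 and 0.61, and the heart form of lactate dehydrogenase, Ldhb, was at 0.65 without a call (adjusted p = 0.145).

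**Figure D1:**
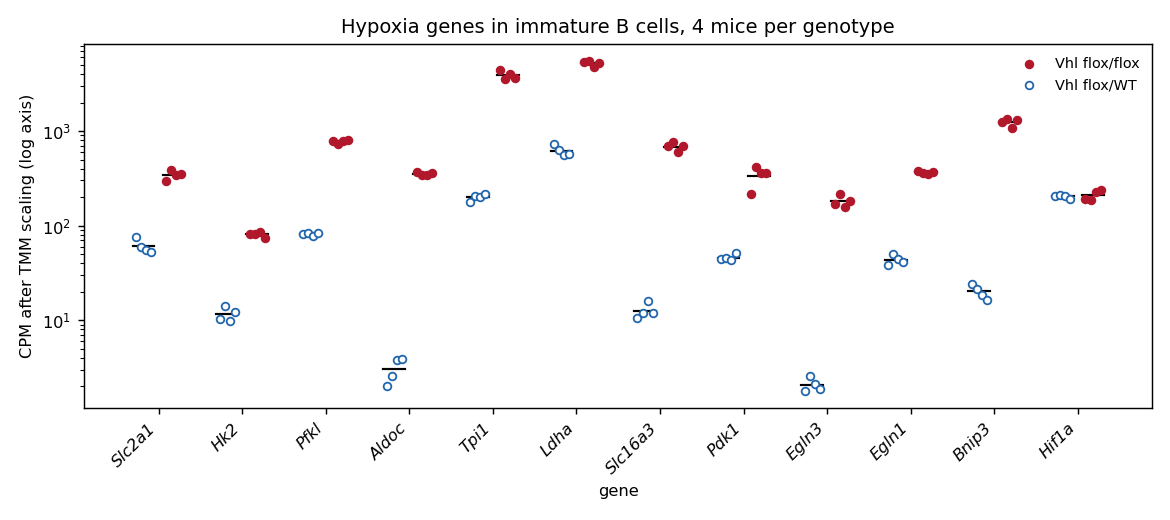
Levels of 12 genes of the hypoxia lists in each of the 8 immature libraries, in CPM on a log axis. Points are libraries, filled for flox/flox and open for flox/WT, and short bars are means of 4. For 11 genes every flox/flox point lies above every flox/WT point, and for Hif1a, with means of 210.1 and 204 CPM, the points mix.

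Of 8 oxygen-dependent hydroxylases, which include those of HIF and of collagen, 5 rose, 3 were not called and 0 fell (median 3.29, unchanged when the gene with 0 control counts is set at its bound). Egln3, the prolyl hydroxylase PHD3, which marks HIF for Vhl, measured 168, 214, 157 and 181 CPM in flox/flox and 1.77, 2.54, 2.10 and 1.85 CPM in flox/WT mice (log2 change 6.44, SE 0.17, adjusted p = 5.21e-22). Egln1, the main HIF hydroxylase PHD2, measured 379, 359, 351 and 371 CPM and 37.9, 50.7, 44.5 and 41.5 CPM (log2 change 3.07, adjusted p = 7.08e-16). Neither gene's genotypes overlapped, and both genes rose further in immature than in proBpreB cells, where they changed by 4.45 and 2.27 (tests of the difference, adjusted p = 1.88e-06 and 0.00803). Plod2, a lysyl hydroxylase of collagen, rose from 0.659 ± 0.115 to 81.5 ± 11.7 CPM. P4ha2, a collagen prolyl hydroxylase subunit, had 0 counts in the flox/WT and 120 counts in the flox/flox libraries. It was thus at least 49.6-fold higher against a limit of 3 counts over the 4 libraries. Its control means were at most 0.0835 CPM in any sort, so it passed the filter through flox/flox libraries and had to differ. Of the 7 tested genes for HIF subunits and partners of Vhl, 1 rose. That was Hif3a, a HIF alpha relative with inhibitory splice forms, at 0.133, 1.81, 1.79 and 1.13 CPM in flox/flox and 0, 0, 0 and 0.463 CPM in flox/WT mice, levels of a few counts that overlapped between genotypes. Its flox/WT libraries were below 1 CPM in every sort, so it passed the filter through flox/flox libraries and its call is a description. Hif1a, the main alpha subunit of lymphocytes, measured 191, 187, 225 and 237 CPM and 205, 211, 208 and 192 CPM, with a log2 change of 0.04 (SE 0.12, adjusted p = 0.851). Arnt, its partner, had a log2 change of 0.09 (SE 0.10, adjusted p = 0.563).

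Of 10 mitochondrial hypoxia genes 9 rose and 0 fell (median 2.92). Bnip3, a receptor on the outer mitochondrial membrane that targets mitochondria for autophagy, lies on chromosome 7 at 138890836 to 138909506 and measured 1235, 1349, 1086 and 1303 CPM in flox/flox and 24.1, 21.3, 18.7 and 16.3 CPM in flox/WT mice. Its log2 change was 5.96 (SE 0.14, adjusted p = 1.19e-22), larger than the 4.64 of proBpreB and the 4.86 of mature cells (tests of the difference, adjusted p = 7.71e-06 and 4.8e-05). The related receptor Bnip3l went from 163 ± 12.7 to 1247 ± 99.1 CPM, also by more than in the other sorts (adjusted p = 0.000589 and 6.36e-06). Mgarp, a mitochondrial protein linked to HIF, measured 156, 154, 138 and 158 CPM in flox/flox and 0.758, 0.127, 0.168 and 0 CPM in flox/WT mice. Ak4, a mitochondrial adenylate kinase, measured 185, 191, 201 and 189 CPM and 0, 0.762, 0.252 and 0.740 CPM. Both were below 1 CPM in the controls and above 100 CPM in each flox/flox library, with log2 changes of 9.25 and 8.72. Their control means were below 1 CPM in every sort, so both passed the filter through flox/flox libraries and had to differ. Higd1a, a small protein of the respiratory chain, rose by 2.30, and Cox4i1, the usual form of a cytochrome oxidase subunit, was at 0.09 without a call (adjusted p = 0.666). Among 4 tested secreted genes 3 rose. Vegfa, the growth factor of blood vessels, measured 101, 96.1, 104 and 94.7 CPM in flox/flox and 1.89, 2.67, 2.19 and 1.85 CPM in flox/WT mice (log2 change 5.53, SE 0.28, adjusted p = 1.59e-14), against a change of 2.40 in proBpreB cells (test of the difference, adjusted p = 2.55e-06). Adm, the vasodilator adrenomedullin, rose by 1.33, less than the 3.90 of mature cells (adjusted p = 2.72e-06). Adm averaged 17.4 ± 1.09 and 2.77 ± 1.28 CPM in immature and mature controls and 43.7 ± 8.07 and 41.1 ± 10.2 CPM in flox/flox mice.

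Of 25 other tested hypoxia genes 21 rose and 0 fell (median 1.77). Vldlr, a lipoprotein receptor on chromosome 19 at 27216480 to 27254231, had 95.8, 82.9, 95.5 and 86.0 CPM in flox/flox mice and 0 counts in each flox/WT library, at least 1157-fold higher. Stc2, the secreted stanniocalcin 2, had 44.0, 27.6, 33.6 and 29.6 CPM and 0 counts, at least 432-fold higher. Both thus went from undetected in 4 control mice to readily counted in all 4 flox/flox mice. Their control means were at most 0.0691 CPM for Vldlr and 0.0230 CPM for Stc2 in any sort. Both therefore passed the filter through flox/flox libraries and had to differ. Ciart, a repressor of the circadian clock, rose from 0.628 ± 0.288 to 47.7 ± 4.84 CPM, and Ankrd37, an ankyrin repeat protein, from 18.7 ± 5.70 to 407 ± 34.5 CPM. Ddit4, an inhibitor of mTORC1, rose by 3.21, the histone demethylase Kdm3a by 1.46, Ero1l, an oxidase of the endoplasmic reticulum, by 2.22, Gys1, glycogen synthase, by 1.64, and Mxi1, a Myc antagonist, by 1.77. Bhlhe40, a transcriptional repressor that HIF induces in many cells, measured 129.6, 101, 109 and 105 CPM in flox/flox and 131, 92.7, 88.3 and 91.7 CPM in flox/WT mice. Its libraries overlapped and its change of 0.14 (SE 0.13, adjusted p = 0.493) was not called, whereas it changed by 1.65 in proBpreB and 2.50 in mature cells (tests of the difference, adjusted p = 1.3e-05 and 2.37e-09). Control levels differed between the sorts, with Bhlhe40 at 6.02 ± 1.31, 101 ± 20.3 and 20.9 ± 2.16 CPM in proBpreB, immature and mature cells. The flox/flox levels were 18.9 ± 1.68, 111 ± 12.6 and 118 ± 7.76 CPM. The related Bhlhe41 rose by 1.03, and by 3.54 in mature cells (adjusted p = 1.49e-05). Bhlhe41 averaged 37.6 ± 9.23 and 5.98 ± 2.90 CPM in immature and mature controls and 76.6 ± 7.25 and 69.3 ± 20.2 CPM in flox/flox mice.

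Across the 81 tested hypoxia genes, the immature change was called larger than the proBpreB change for 19 and smaller for 4, against 4.72% and 6.14% of all genes, and the 4 became 2 without proBpreB flox/WT replicate 4. It was called larger than the mature change for 8 and smaller for 6, against 2.23% and 5.51% of all genes. The medians were 1.65 in proBpreB and 2.2 in mature cells, with 58 and 60 genes higher and 0 lower in each. In those sorts 3.38% and 9.69% of all genes were higher, 6.13% and 16.3% were called in either direction, and the effect differed from that in immature cells for 10.9% and 7.74%.

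Promoters are shown for 4 of the risen genes because the HIF dimer binds the core ACGTG. The sequences are RefSeq windows of GRCm38.p6, and each is the 120-base stretch upstream of an annotated start that holds the most matches to ACGTG or, for the other strand, CACGT. Matches are in capitals. Where both strands match, the capitals run together as CACGTG, the E-box that Myc and clock factors also bind.
Bnip3 promoter, chr7:138909507-138909626 (minus strand): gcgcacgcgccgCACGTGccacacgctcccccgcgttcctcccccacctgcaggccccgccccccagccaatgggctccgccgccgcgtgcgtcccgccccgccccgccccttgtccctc
Slc16a3 promoter, chr11:120948947-120949066 (plus strand): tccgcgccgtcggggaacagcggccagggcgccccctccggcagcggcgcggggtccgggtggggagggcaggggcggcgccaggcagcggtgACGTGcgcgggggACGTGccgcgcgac
Ldha promoter, chr7:46845659-46845778 (plus strand): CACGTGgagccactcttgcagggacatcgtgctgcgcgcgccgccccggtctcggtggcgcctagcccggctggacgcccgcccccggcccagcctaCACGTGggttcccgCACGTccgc
Ciart promoter, chr3:95882229-95882348 (minus strand): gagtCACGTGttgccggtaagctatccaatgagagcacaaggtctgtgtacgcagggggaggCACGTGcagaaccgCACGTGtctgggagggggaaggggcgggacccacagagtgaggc
In Slc16a3 both matches start within 27 bases of the start site, at -27 and -14. In Ciart 3 CACGTG copies start at -116, -58 and -44. In Ldha 2 such copies start at -145 and -48, with a further match at -34 on the other strand. Over windows from 250 bases before to 50 bases after each start, ACGTG on either strand was in 52.6% of the 76 windows of called hypoxia list members, 30.9% of the 1286 windows of all genes that rose, 23.7% of the 1267 windows of genes that fell, 25.1% of the 12298 windows of tested genes and 19.6% of all 32851 windows. Windows of a gene with several starts can overlap. A match is a description of letters and not of binding.

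Genes of the cell cycle fell together in immature flox/flox cells. Of 84 tested genes for replication, chromosome segregation, cyclins and their kinases, 75 were lower and 1, the phosphatase Cdc25b, was higher, against 10.5% and 10.2% of all genes, with a median log2 change of -1.47. The genotypes did not overlap, with flox/flox below, in 73 of the 84, as in 11.5% of all genes. Leaving out any 1 of the 8 libraries left 71 to 74 genes lower. In the same flox/flox libraries erythroid and neutrophil markers were higher, with the sums given above, and their part in these falls was not tested.

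Origin licensing and firing was lower in 13 of 15 genes (median -1.06) and DNA synthesis in 17 of 19 (median -0.92). Mcm6, a subunit of the replicative helicase, measured 183, 130.2, 195 and 179 CPM in flox/flox and 398, 397, 399 and 415 CPM in flox/WT mice (log2 change -1.23, SE 0.19, adjusted p = 2.03e-05). Mcm10, a replication initiation factor, measured 6.00, 3.63, 11.8 and 11.0 CPM and 27.0, 33.9, 41.1 and 37.5 CPM (log2 change -2.09, adjusted p = 2.42e-06). Every flox/flox library lay below every flox/WT library for both, and the flox/WT libraries were close to each other for Mcm6. Cdt1, the licensing factor, was without a call at -0.22 (adjusted p = 0.264). Rrm2, the regulated subunit of ribonucleotide reductase, measured 99.8, 81.1, 113 and 136 CPM in flox/flox and 328, 279.6, 329 and 315 CPM in flox/WT mice (log2 change -1.54, SE 0.19, adjusted p = 1e-06). Pcna, the sliding clamp of DNA polymerases, fell by 0.90, thymidylate synthase Tyms by 1.45, the primase subunit Prim1 by 1.71 on the log2 scale. Uhrf1, which guides maintenance DNA methylation, had a log2 change of -1.70.

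Of the cell cycle lists, chromosome segregation had the lowest median, at -1.78, and 29 of its 29 genes were lower. Kif11, the spindle motor Eg5 on chromosome 19 at 37376382 to 37421863, measured 36.8, 20.9, 38.9 and 39.8 CPM in flox/flox and 118, 150.0, 189 and 177 CPM in flox/WT mice (log2 change -2.22, SE 0.21, adjusted p = 6.71e-09). Top2a, the topoisomerase that untangles sister chromatids, measured 90.1, 69.9, 100.4 and 107 CPM and 309, 372, 537 and 476 CPM (log2 change -2.21, SE 0.24, adjusted p = 3.02e-07). Mki67, the proliferation antigen Ki-67, measured 22.9, 15.5, 45.2 and 34.9 CPM and 64.9, 174, 352 and 272 CPM, with no overlap but a wide spread among the controls (log2 change -2.86, SE 0.50, adjusted p = 0.000304). Flox/WT replicate 1 was the lowest control for Mki67, Cenpf, Kif11 and Top2a, and its values still exceeded every flox/flox library. The kinetochore proteins Cenpf and Cenpe fell by 2.73 and 2.54, the spindle pole protein Aspm by 2.35, the checkpoint kinase Bub1 by 1.81 and Aurkb, the kinase of the chromosomal passenger complex, by 1.48.

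Among cyclins, kinases and their transcription factors 16 of 21 were lower. Ccna2 and Ccnb2, the cyclins of DNA replication and mitosis, fell with log2 changes of -1.75 and -1.70, their kinase Cdk1 by 1.43, the G1 cyclin Ccne1 by 1.53 and the repressor E2f7, itself an E2F target, by 2.22. Ccnd2, the D-type cyclin that couples growth signals to the cycle, measured 271, 223, 262 and 241 CPM in flox/flox and 538, 511, 505 and 395 CPM in flox/WT mice (log2 change -0.97, SE 0.18, adjusted p = 0.000188). It went the other way in the remaining sorts, by 0.82 in proBpreB and 1.56 in mature cells (tests of the difference, adjusted p = 2.75e-05 and 1.02e-07). Cdc25b, a phosphatase that activates Cdk1, rose from 150.2 ± 35.3 to 234 ± 12.6 CPM. Of 10 tested inhibitors 1 rose and 2 fell, against 10.2% and 10.5% of all genes. The rises became 4 without flox/WT replicate 1 and 2 without flox/flox replicate 3. Cdkn1b, the kinase inhibitor p27, measured 28.8, 54.1, 32.5 and 37.4 CPM in flox/flox and 23.7, 15.5, 13.7 and 20.2 CPM in flox/WT mice (log2 change 1.07, SE 0.21, adjusted p = 0.000456), while the inhibitor Cdkn2c (p18) and the pocket protein Rbl1 (p107) fell by 1.07 and 0.98.

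**Figure D2:**
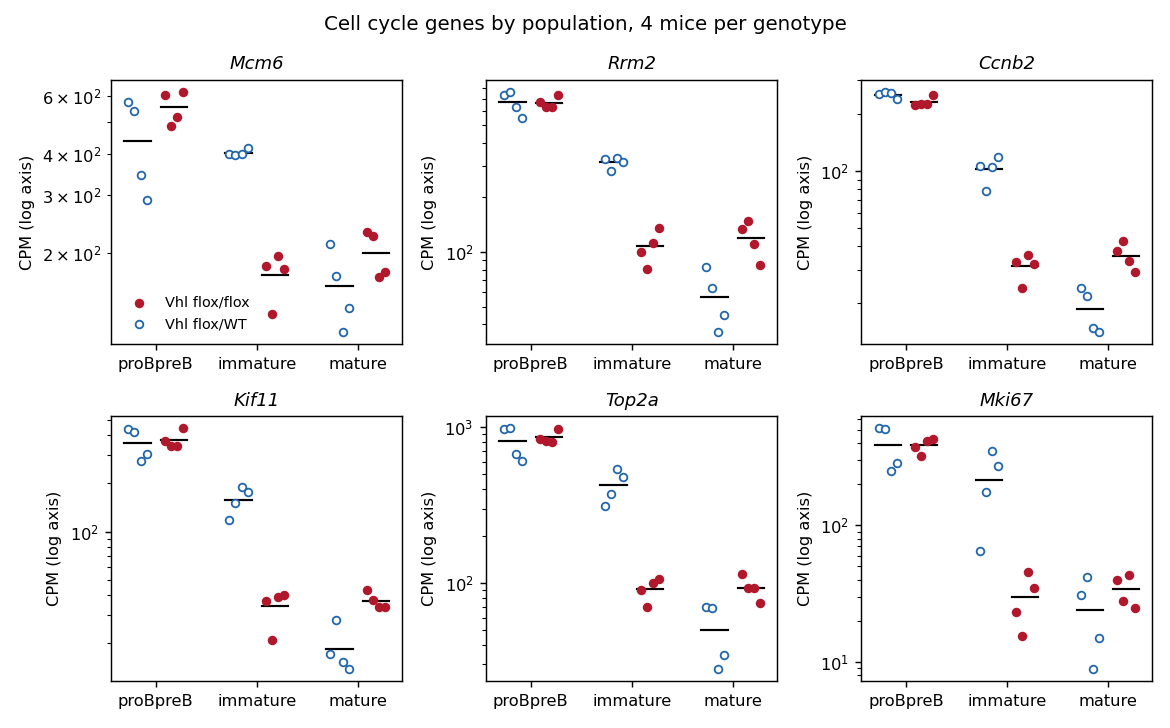
Levels of 6 cell cycle genes in the 24 libraries by population and genotype, in CPM on a log axis. Points are libraries, filled for flox/flox and open for flox/WT, and bars are means of 4. In the immature sort every flox/flox point lies below every flox/WT point.

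None of these genes was called lower in the other sorts. Of the same 84 genes, 2 were higher and 0 lower in proBpreB cells (median 0.05, with 3.38% and 2.75% of all genes called), and 40 were higher and 0 lower in mature cells (median 0.59, with 9.69% and 6.62% of all genes called). The genotype effect was called lower in immature than in proBpreB cells for 71 of the 84 and lower than in mature cells for 71, against 6.14% and 5.51% of all genes. Leaving out 1 library of the populations compared gave 62 to 68 genes against proBpreB and 68 to 70 against mature cells. Kif11 averaged 374 ± 46.5 and 359 ± 82.2 CPM in flox/flox and flox/WT proBpreB cells, 34.1 ± 8.86 and 159 ± 31.4 CPM in immature cells and 36.9 ± 4.37 and 18.5 ± 6.36 CPM in mature cells. In controls its level thus stood between those of the other sorts, while in flox/flox mice the immature and mature means lay within their SD of each other. The same order was seen for Top2a, at 858 ± 81.3 and 807 ± 194, 91.7 ± 16.1 and 424 ± 102, and 93.3 ± 16.0 and 50.2 ± 22.1 CPM. The genes with the smallest adjusted p for the difference between populations were mostly of this kind. Against proBpreB cells they were Casc5, a kinetochore scaffold, Esco2, a cohesin acetyltransferase, Cdca3, a factor of mitotic entry, and Shcbp1, which acts in cytokinesis, with differences of -2.17, -2.06, -1.78 and -1.80 (adjusted p from 6.09e-07 to 1.77e-06). Also among them were Smtnl2, a smoothelin-like gene, and Aldoc, whose log2 changes were larger in immature cells by 3.12 and 2.25. Smtnl2 averaged 176 ± 21.1 and 113 ± 19.0 CPM in flox/flox and flox/WT proBpreB cells and 60.7 ± 9.77 and 4.39 ± 2.01 CPM in immature cells. Against mature cells they were Shcbp1, Esco2, Cdca3, Ccnb2, Bhlhe40 and the kinetochore genes Spc25 and Spc24, with differences from -3.06 for Shcbp1 to -2.36 for Bhlhe40.

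**Figure D3:**
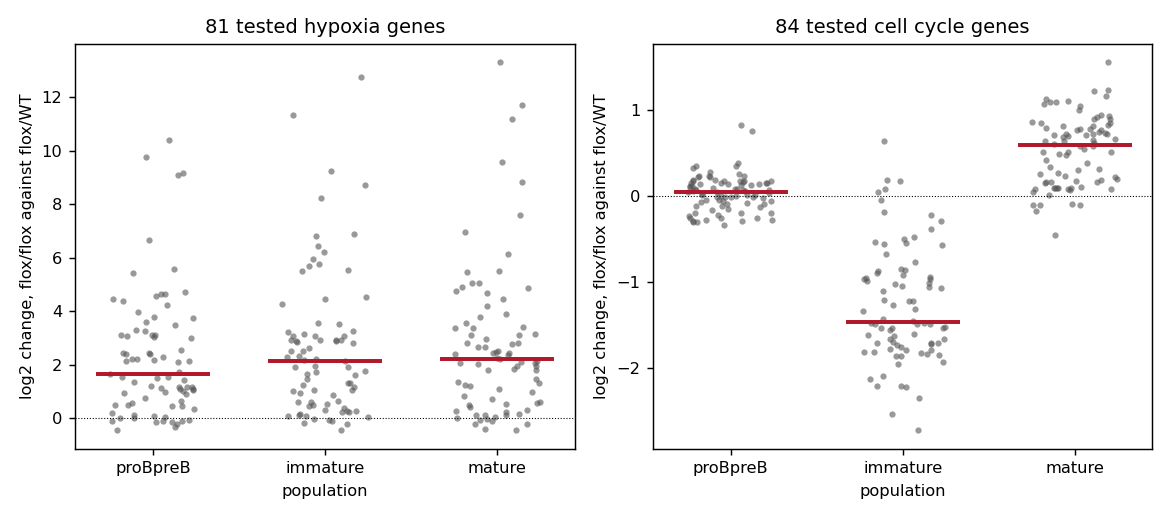
Log2 change between flox/flox and flox/WT mice for the 81 tested hypoxia genes and the 84 tested cell cycle genes in each sort. Points are genes and bars are medians, at 1.65, 2.13 and 2.2 for hypoxia and 0.05, -1.47 and 0.59 for the cell cycle in proBpreB, immature and mature cells.

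Promoters of 4 fallen genes are shown for TTTGAA, the cell cycle homology region bound by the DREAM and B-Myb complexes at genes of late cycle phases. They were chosen as above, with matches to TTTGAA or TTCAAA in capitals.
Kif11 promoter, chr19:37376262-37376381 (plus strand): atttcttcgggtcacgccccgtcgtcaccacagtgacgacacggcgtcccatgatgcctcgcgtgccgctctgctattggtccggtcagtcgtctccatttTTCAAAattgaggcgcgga
Top2a promoter, chr11:99024190-99024309 (minus strand): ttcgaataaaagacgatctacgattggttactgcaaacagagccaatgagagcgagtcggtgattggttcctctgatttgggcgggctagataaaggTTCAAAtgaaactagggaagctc
Ccnb2 promoter, chr9:70421602-70421721 (minus strand): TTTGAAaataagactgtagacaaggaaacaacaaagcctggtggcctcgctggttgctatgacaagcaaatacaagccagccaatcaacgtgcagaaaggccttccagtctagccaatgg
Mki67 promoter, chr7:135716380-135716499 (minus strand): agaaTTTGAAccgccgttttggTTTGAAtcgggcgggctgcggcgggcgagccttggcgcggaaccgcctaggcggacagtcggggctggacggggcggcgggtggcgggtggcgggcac
In Kif11 and Top2a the match starts at -19 and -23, next to the start site, and in Mki67 matches start at -116 and -98. TTTGAA on either strand was in 73.9% of the 23 windows of called chromosome segregation genes, 13.8% of the 29 windows of called replication genes, 20.0% of the windows of all genes that fell, 10.4% of those of genes that rose, 12.3% of those of tested genes and 17.9% of all windows. The motifs searched here can overlap each other by at most 1 base.

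Enzymes that feed growth were lower in part. Of 8 serine and folate enzymes 5 fell and 1 rose (median -0.91), where 10.5% of all genes fell and 10.2% rose. Phgdh, which opens serine synthesis from a glycolytic intermediate, measured 141, 135, 123 and 138 CPM in flox/flox and 368, 296, 277 and 320.2 CPM in flox/WT mice (log2 change -1.23, SE 0.12, adjusted p = 2.61e-09). Mthfd2, a folate enzyme of mitochondria, fell by 1.46, and its neighbour in the pathway, Mthfd1l, rose from 66.2 ± 3.99 to 148 ± 16.3 CPM. For Phgdh the change was lower than in proBpreB and mature cells, where it was -0.06 and -0.15 (tests of the difference, adjusted p = 1.65e-05 and 2.81e-05). Of 20 genes of cholesterol synthesis and uptake 7 fell and 0 rose (median -0.35). Sqle, squalene epoxidase, measured 6.66, 3.77, 7.15 and 4.14 CPM in flox/flox and 14.3, 19.8, 23.6 and 20.9 CPM in flox/WT mice (log2 change -1.85, SE 0.22, adjusted p = 2.1e-07). Idi1 and Cyp51, further enzymes of the pathway, fell by 1.27 and 1.11. Of 14 genes of the Myc network 2 rose and 5 fell. The Myc antagonists Mxd1 and Mxd3 rose by 0.57 and 0.59, and Srm, spermidine synthase, fell by 0.62. The 5 falls became 3 without flox/flox replicate 1, 1 without flox/flox replicate 2, and 2 without any of flox/flox replicate 4 and flox/WT replicates 2, 3 and 4.

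Of 21 genes of the tricarboxylic acid cycle 5 fell and 0 rose (median -0.15), where 10.5% of all genes fell and 10.2% rose, and the falls became 3 when flox/WT replicate 1 or 2 or flox/flox replicate 3 was left out and 2 without flox/flox replicate 4. Idh3a, a subunit of isocitrate dehydrogenase, fell by 0.50 and Fh1, fumarase, by 0.46. Of 24 nuclear subunits of oxidative phosphorylation 1 fell, Ndufa10 of complex I at -0.48, and 0 rose (median -0.07, range -0.48 to 0.08). Ppargc1a, a coactivator of mitochondrial genes, rose from 3.05 ± 0.923 to 8.68 ± 2.08 CPM.

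**Figure D4:**
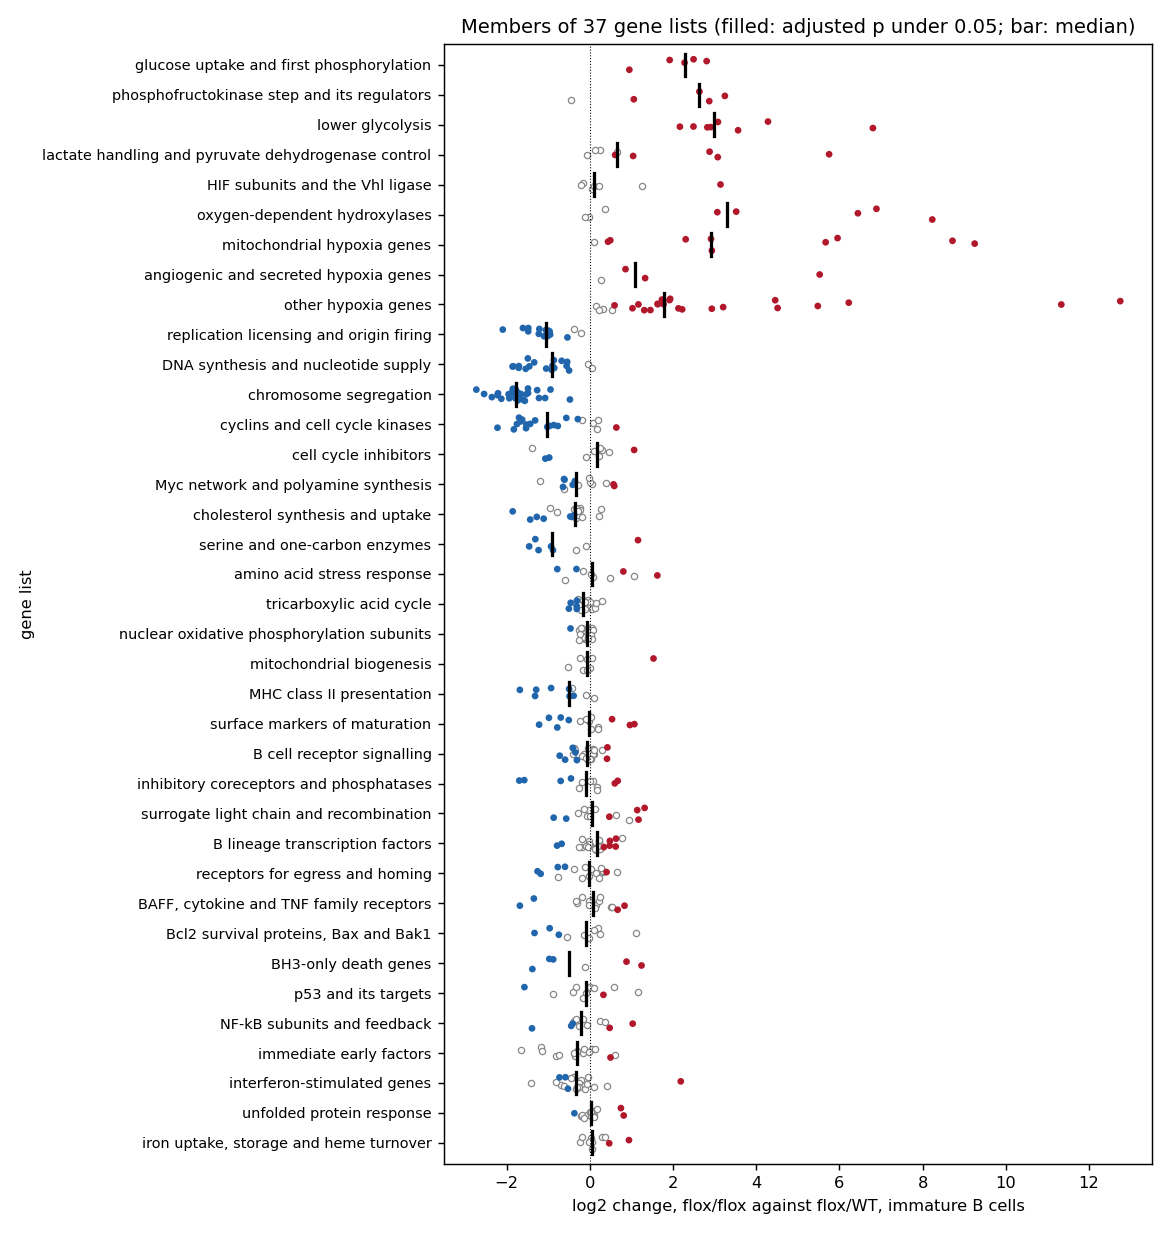
Log2 change between flox/flox and flox/WT immature cells for the tested members of 37 gene lists, 1 row per list. Each point is a gene, filled where it passed an adjusted p of 0.05, and the vertical bar is the list median. Medians run from -1.78 for chromosome segregation to 3.29 for the hydroxylases, and most other lists lie near 0. For Vldlr, Stc2, P4ha2 and Cox4i2, with 0 control counts, the fitted change depends on the prior count.

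Most genes of MHC class II presentation were lower. Of 10 MHC class II genes 7 fell and 0 rose (median -0.49), where 10.5% of all genes fell and 10.2% rose. With 1 library left out 5 to 7 fell. In mature cells 9 of the 10 fell (median -0.56) and in proBpreB cells 4 (median -0.31), against 6.62% and 2.75% of all genes. The genotype effect was called lower in immature than in mature cells for 2 of the 10 and than in proBpreB cells for 3, against 5.51% and 6.14% of all genes. H2-Eb1, a class II beta chain on chromosome 17 at 34305867 to 34316674, measured 392, 307, 281 and 293 CPM in flox/flox and 1057, 918, 1108 and 1001 CPM in flox/WT mice (log2 change -1.68, SE 0.16, adjusted p = 5.75e-09). H2-Aa, a class II alpha chain, measured 741, 648, 526 and 566 CPM and 1744, 1401, 1605 and 1426 CPM (log2 change -1.32, SE 0.16, adjusted p = 2.55e-07). Ciita, the transactivator of class II genes, measured 78.5, 50.9, 70.6 and 68.4 CPM and 119.6, 171, 195 and 170.2 CPM (log2 change -1.29, adjusted p = 9.6e-07). None of these genes overlapped between the genotypes. The log2 change of H2-Eb1 was -0.53 in proBpreB and -0.78 in mature cells, and the immature fall was the larger by both tests of the difference (adjusted p = 0.00115 and 0.00953). For Ciita, which fell by 0.97 and 0.92 there, no difference was called (adjusted p = 0.451 and 0.395).

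Of 15 surface markers of maturation 3 rose and 5 fell, where 10.2% of all genes rose and 10.5% fell. Cr2, the complement receptor CD21 that mature follicular cells carry, measured 45.7, 40.3, 56.6 and 37.6 CPM in flox/flox and 93.2, 107, 112 and 108 CPM in flox/WT mice (log2 change -1.22, SE 0.16, adjusted p = 1.32e-06). Fcer2a, the low-affinity IgE receptor CD23, fell by 0.78. Cd93, a receptor of early B cells that is lost with maturation, went the other way, with 91.9, 85.3, 113 and 104 CPM in flox/flox and 41.5, 47.6, 46.3 and 51.9 CPM in flox/WT mice (log2 change 1.07, SE 0.22, adjusted p = 0.000736). In control mice Cd93 averaged 205 ± 44.2, 46.8 ± 4.27 and 11.3 ± 5.73 CPM, and Cr2 3.43 ± 1.38, 105 ± 8.18 and 407 ± 45.4 CPM, in proBpreB, immature and mature cells. For both genes, the immature flox/flox mean lay between the control means of the immature and the proBpreB sort. Other genes moved away from the proBpreB level. Lef1 averaged 182 ± 57.1 and 39.5 ± 4.66 CPM in proBpreB and immature controls and 24.7 ± 3.18 CPM in immature flox/flox cells. For Alpl, an alkaline phosphatase, these means were 38.1 ± 6.61, 17.2 ± 4.64 and 3.23 ± 1.51 CPM. Of 8 markers of mature follicular cells 4 fell and 0 rose, and their summed level was 2750 to 2929 CPM in flox/flox and 3172 to 3384 CPM in flox/WT libraries. Pro-B and pre-B markers summed to 204.5 to 253.5 and 148.4 to 210.6 CPM, which overlapped. Of the 10 tested, 3 rose and 1 fell, and with 1 library left out 0 to 2 rose and 0 to 1 fell. Whether a different mix of stages within the gate has a part in these differences was not tested.

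**Figure D5:**
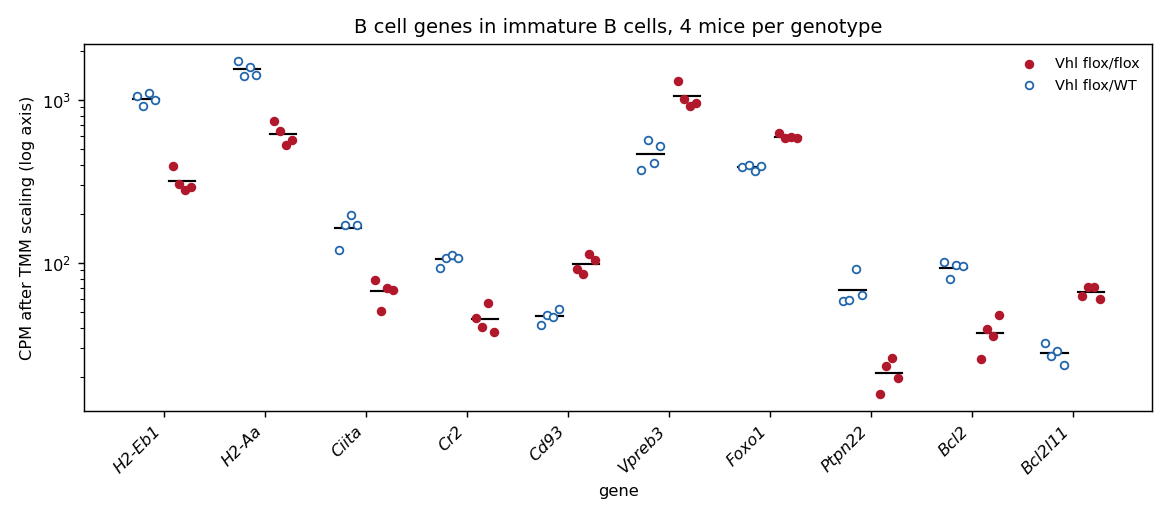
Levels of 10 genes of B cell maturation, signalling and survival in the 8 immature libraries, in CPM on a log axis. Points are libraries, filled for flox/flox and open for flox/WT, and bars are means of 4. Flox/flox points lie above flox/WT points for Cd93, Vpreb3, Foxo1 and Bcl2l11 and below them for the other 6 genes.

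Vpreb3, a chaperone-like relative of the surrogate light chain that is made up to the immature stage, measured 1305, 1017, 925 and 960.0 CPM in flox/flox and 369.8, 566, 412 and 522 CPM in flox/WT mice (log2 change 1.17, SE 0.14, adjusted p = 5.01e-07). In proBpreB cells its change was -0.41 (test of the difference, adjusted p = 7.71e-06). Its list, surrogate light chain and recombination, had 14 tested genes, of which 4 rose and 2 fell (median 0.06). These counts stand against 10.2% and 10.5% of all genes. Leaving out 1 library gave 1 to 3 rises and 1 to 3 falls. Of 26 transcription factors of the lineage 5 rose and 2 fell, where 10.2% of all genes rose and 10.5% fell. Foxo1, which drives receptor editing and homing genes, measured 629, 584, 589 and 581 CPM in flox/flox and 386, 398, 369 and 394 CPM in flox/WT mice (log2 change 0.62, SE 0.12, adjusted p = 0.00029). Nfatc1, a calcium-regulated factor, measured 231, 178, 253 and 251 CPM and 360.3, 390.3, 418 and 408 CPM (log2 change -0.79, adjusted p = 4.31e-06). For both the genotypes did not overlap. Id2, an inhibitor of E proteins, rose by 0.63, and Lef1, a factor of the Wnt pathway, fell by 0.68 but rose by 2.15 in mature cells (test of the difference, adjusted p = 6.73e-09). The 5 rises became 3 when replicate 1 of either genotype, flox/flox replicate 2 or flox/WT replicate 3 was left out, and 2 without flox/flox replicate 3. Of 17 receptors for egress and homing 1 rose and 4 fell, and the rises became 0 without flox/flox replicate 2 and 2 when flox/WT replicate 1 or flox/flox replicate 3 was left out. Gpr183, the oxysterol receptor EBI2 that positions B cells, measured 21.2, 31.0, 24.8 and 25.8 CPM in flox/flox and 83.5, 56.9, 55.9 and 49.8 CPM in flox/WT mice (log2 change -1.26, adjusted p = 7.82e-07), and the follicle homing receptor Cxcr5 and the integrin Itgb7 fell by 0.60 and 0.77. Of 16 cytokine and TNF family receptors and ligands 2 rose and 2 fell, a share close to the 10.2% and 10.5% of all genes. Il5ra, the interleukin-5 receptor, fell from 49.6 ± 5.18 to 15.4 ± 1.75 CPM, and Ltb, a lymphotoxin chain, rose from 675 ± 119 to 1073 ± 91.5 CPM.

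Of 22 genes of B cell receptor signalling 2 rose and 5 fell (median -0.08), where 10.2% of all genes rose and 10.5% fell, with 3 falls without flox/flox replicate 4. Cd79b, a signalling chain of the receptor, measured 4678, 3879, 3914 and 3640.3 CPM in flox/flox and 3890.0, 4122, 3343 and 3746 CPM in flox/WT mice, which overlapped (log2 change 0.09, SE 0.10, adjusted p = 0.572). Prkcb, the protein kinase C that links the receptor to NF-kB, fell from 711 ± 78.6 to 431 ± 61.0 CPM, and the receptor-proximal kinase Blk by 0.41 on the log2 scale. Of 12 inhibitory receptors and phosphatases 2 rose and 4 fell. Ptpn22, a phosphatase that restrains antigen receptor signals, measured 15.6, 23.3, 25.9 and 19.7 CPM in flox/flox and 58.1, 59.4, 92.3 and 63.5 CPM in flox/WT mice (log2 change -1.70, SE 0.19, adjusted p = 1.15e-07). The genotypes were separate. In proBpreB cells the log2 change of Ptpn22 was 0.67 (test of the difference, adjusted p = 1.88e-06).

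Regulators of cell death changed in both directions. In the list of Bcl2 survival proteins, Bax and Bak1, 0 of 10 genes rose and 3 fell (median -0.08), against 10.2% and 10.5% of all genes. Leaving out 1 library gave 1 to 2 falls. Bcl2, the inhibitor of mitochondrial cell death, measured 25.6, 39.1, 35.6 and 48.1 CPM in flox/flox and 101, 80.1, 96.8 and 95.5 CPM in flox/WT mice (log2 change -1.33, SE 0.16, adjusted p = 1.99e-07). Bcl2l11, which encodes its antagonist Bim, a mediator of the deletion of self-reactive B cells, measured 62.5, 71.2, 70.8 and 59.6 CPM and 32.2, 26.8, 28.9 and 23.7 CPM (log2 change 1.24, SE 0.14, adjusted p = 5.78e-08). No flox/flox library overlapped a flox/WT library for either gene. The log2 changes in proBpreB and mature cells were 0.41 and 0.63 for Bcl2 and 0.46 and 0.56 for Bcl2l11, and the differences from the immature change were called for Bcl2 in both sorts (adjusted p = 9.04e-06 and 2.33e-07) and for Bcl2l11 in both (adjusted p = 0.00731 and 0.0216). The difference of Bcl2l11 from mature cells lost its call without immature flox/WT replicate 2 or 4 or mature flox/WT replicate 2 (adjusted p = 0.0501, 0.0602 and 0.0541). Of the 6 tested death genes with only a BH3 domain 2 rose and 3 fell. Besides Bcl2l11 the riser was Bmf, at 0.88 with overlap between the genotypes, and Bid and Pmaip1 (Noxa) fell by 0.97 and 1.38. Of 11 tested p53 genes 1 rose and 1 fell, with 2 rises when flox/WT replicate 1 or flox/flox replicate 2 or 4 was left out. These counts are close to the 10.2% and 10.5% of all genes that rose and fell. The riser was Mdm2, the ligase that degrades p53, by 0.33, and Gtse1, which is also expressed with the cell cycle, fell by 1.57.

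Signalling lists that serve many cell types are given against 10.2% of all genes higher and 10.5% lower. Of 14 genes of the unfolded protein response 2 rose and 1 fell, with 0 falls when replicate 2 of either genotype or flox/WT replicate 3 was left out. Xbp1, the factor at its centre, measured 509, 422, 409.7 and 409.8 CPM in flox/flox and 299, 285, 231 and 227 CPM in flox/WT mice (log2 change 0.75, SE 0.12, adjusted p = 4.17e-05), and the chaperone Dnajb9 rose by 0.82. Of 12 NF-kB genes 2 rose and 3 fell. Nfkbiz, an atypical inhibitor, rose from 9.86 ± 2.65 to 20.3 ± 2.16 CPM, and Traf1 fell from 8.61 ± 1.32 to 3.30 ± 0.437 CPM. The falls became 1 without replicate 2 of either genotype. Of 20 interferon-stimulated genes 1 rose and 3 fell, and the falls became 0 when flox/WT replicate 4 or flox/flox replicate 1 was left out and 5 when flox/WT replicate 1 or flox/flox replicate 3 was.

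Of the 15 largest rises named by the rule, 12 are members of the hypoxia lists. Those lists were chosen with earlier results of these data known, so the overlap is a description. The others were Basp1, a membrane-bound phosphoprotein, which rose from 2.53 ± 0.451 to 61.5 ± 11.8 CPM (log2 change 4.58), Prelid2, a PRELI domain gene, from 2.81 ± 0.705 to 51.9 ± 6.09 CPM (4.20), and Arhgdig from 0.979 ± 0.596 to 15.6 ± 4.43 CPM (3.99). All 3 also rose in the other sorts. Of the 15 largest falls, Vhl, Cenpf, Cenpe, Aspm and E2f7 are described above, as is Mki67. Ticrr and Clspn, which act in replication initiation and its checkpoint, fell by 2.32 and 2.26 on the log2 scale, and the helicase Pif1 by 2.42. Pask, a PAS domain kinase, fell from 23.1 ± 3.84 to 4.75 ± 1.01 CPM, Alpl, tissue-nonspecific alkaline phosphatase, from 17.2 ± 4.64 to 3.23 ± 1.51 CPM, Zbtb32, a repressor found in activated lymphocytes, from 9.73 ± 4.10 to 1.84 ± 0.764 CPM, and Col5a3, a collagen chain, from 54.1 ± 21.0 to 11.2 ± 3.11 CPM. The log2 change of Col5a3 was -3.03 in proBpreB and -3.57 in mature cells, and no difference was called. The remaining falls depended on a library or on the tool. Jchain, the joining chain of secreted antibody and a plasma cell marker, had a change of -2.58 (adjusted p = 0.0172), with an adjusted p of 0.0569 without flox/flox replicate 2 and 0.0566 without flox/flox replicate 4. Hist1h2ak, a replication-dependent histone gene with near-identical copies and therefore uncertain, had a change of -2.69 (adjusted p = 0.00241), with an adjusted p of 0.0545 by limma-voom.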

How the data were processed

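RNA was measured in sorted bone marrow B cells, 1 library per mouse and population, prepared with a low-input SMARTer kit per the labels' protocols. The authors deposited raw counts per gene symbol for 24421 genes. The submitters' processing notes name HISAT2, featureCounts, DESeq2 and build mm10, with no annotation or strand setting. A second deposited table holds the authors' signal, which is the counts of 17514 genes divided by 1 size factor per library, and was not tested. Symbols were matched to the RefSeq table of GRCm38.p6 (12174 of 12850).

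Counts of all 24 libraries were fitted in 1 model of 6 groups with edgeR 4.0.16 in R 4.3.3 (filterByExpr, TMM, robust quasi-likelihood, 18 residual degrees of freedom), with Benjamini-Hochberg adjustment over 12850 genes. The other populations add to the estimate of the spread, and contrasts between populations test whether the genotype effect differs. The steps were tested on simulated data. Within each genotype, every pair of immature libraries differed by more than sampling noise. Depth sets the precision of low genes: bounds against 0 counts use 3 counts over the 4 libraries and cover counting error only. Alternatives were RLE scaling, other filters, immature libraries alone, DESeq2 1.42.0, limma-voom 3.58.1, a replicate block and leaving out each library. Labels tie the sorts of a genotype to the same mice, while mice of the 2 genotypes share only a number.

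Genes were named by a rule: Vhl, the 15 largest rises and falls past an adjusted p of 0.05 whose genotypes did not overlap and whose log2 CPM averaged 2 or more, the 8 smallest adjusted p-values of each difference between populations, and members of the gene lists; some of these are not reported here. Members and lists were chosen with earlier results of these data known.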

Additional observations from a re-analysis of the deposited data

Results flagged for a closer look

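Among 298 checks of 139 genes and 10 marker sums in either genotype, 15 had 1 library apart from the other 3, about as many as the 1 in 20 that chance gives. In flox/flox mice these were Cdk1 (38.3 CPM in replicate 4), Ciart (40.4 in replicate 3), Foxo1 (629 in replicate 1), Kif11 (20.9 in replicate 2), Pgk1 (2301 in replicate 2), Plod2 (98.8 in replicate 2), Spc25 (18.7 in replicate 4) and Xbp1 (509 in replicate 1). In flox/WT mice they were Bhlhe40 (131 CPM in replicate 1), Esco2 (57.2 in replicate 3), Hif3a (0.463 in replicate 4), Ldhb (5.18 in replicate 4), Mcm6 (415 in replicate 4), Pdk3 (57.5 in replicate 4) and Ptpn22 (92.3 in replicate 3).

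The genotype effect differed between immature and proBpreB cells for 1395 genes and between immature and mature cells for 995 genes by edgeR's contrasts (10.9% and 7.74% of 12850 genes). Against proBpreB cells the named differences of log2 change were -2.17 for Casc5, -2.06 for Esco2, 3.12 for Smtnl2, -1.78 for Cdca3, 2.25 for Aldoc and -1.80 for Shcbp1. Against mature cells they were -3.06 for Shcbp1, -2.85 for Esco2, -2.48 for Cdca3, -2.64 for Ccnb2, -2.36 for Bhlhe40, -2.37 for Spc25 and -2.81 for Spc24.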

How the results depend on the processing

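The 2656 calls in immature cells ranged from 2414 without a filter to 2995 with DESeq2, and from 2114 to 2789 with 1 library left out. The differences between populations ranged from 1204 to 1701 genes against proBpreB and from 825 to 1198 against mature cells, and from 994 to 1606 and 781 to 1100 with 1 library left out. The fall of Vhl ranged from -2.90 to -2.45 with 1 library left out. With the replicate block 2850 genes were called in immature cells, and 1559 and 1088 for the differences with the mouse as block. Same-numbered mice of the 2 genotypes correlated at -0.237 to 0.482, 1 of 4 pairs above 0.1. So few correlations cannot decide whether the numbers pair the genotypes. RLE scaling moved the median log2 change of all genes from 0.0034 to 0.0045. Of 131 named called genes, 129 kept call and direction under every alternative run, the exceptions being Jchain and Hist1h2ak. Of the uncalled genes, Cox4i1 ranged from -0.0088 to 0.175 and Hif1a from -0.0205 to 0.0950 with 1 library left out. The cause was not tested. Depth limits what can be said of genes under about 0.419 CPM.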
